A study of Mus musculus with 6 samples.

Results

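The primordial germ cell genes described here were 10 listed genes, all of which were found by symbol among the 55401 genes of the count table: *Dppa3*, *Pou5f1*, *Ddx4*, *Dazl*, *Nanos3*, *Kit*, *Prdm1*, *Tfap2c*, *Dnd1* and *Sall4*. They were measured by RNA-seq in whole mouse embryos at E10.5 on a C57BL/6J background. WT embryos had an unmodified *Igf2* locus, and their 5C littermates carried 5 tandem extra copies of the microRNA gene *Mir483*, placed at that locus by cassette exchange in embryonic stem cells. Each genotype had 3 libraries, and the methods describe each library as a pool of 2 male embryos. The 5C embryos do not survive gestation and are small, so that a difference between genotypes cannot be told apart from a difference in the stage or state of the embryo.

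Primordial germ cells are the founders of eggs and sperm. They are set apart from the epiblast by BMP signals, which switch on PRDM1, PRDM14 and TFAP2C, and they keep a part of the pluripotency program while they silence the somatic one. Around E10.5 they migrate from the hindgut to the genital ridges, where they later express DDX4 and DAZL, and in a whole embryo they are a very small minority of cells. Several of the listed genes are shared with more abundant cells: *Kit* with melanoblasts and blood progenitors, *Prdm1* and *Tfap2c* with other embryonic tissues, and *Sall4* with many progenitors.

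The question addressed was whether transcripts of this lineage differed between 5C and WT embryos. None of the 7 genes with enough counts for the fit passed the test. The defining germ cell transcripts *Dppa3*, *Pou5f1* and *Dazl* were at or near the detection limit in every library, with at most 6 counts each. *Ddx4* and *Nanos3* were low but present in all 6 libraries, and *Sall4*, *Kit*, *Tfap2c* and *Prdm1* were well measured. At these depths the libraries are a measurement of the broadly expressed members, and only a weak one of the germ cells themselves. As in any bulk sample, fewer cells of a type cannot be told apart from less RNA per cell.

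Libraries held 6357343 to 19151368 counts. A floor of 3 counts corresponded to a level that lay between 0.157 and 0.477 CPM (counts scaled to a common library size by TMM), and this limit covers counting error only. Some libraries stood apart from others of the same genotype. Replicate 2 of each genotype had 4.11 and 0.0852 CPM summed over 4 Y-linked genes, against 130 to 211 CPM in the other libraries, although all pools were described as male. WT replicate 1 had 6302 CPM summed over 10 markers of yolk sac endoderm, against 179 to 1267 CPM elsewhere. Summed CPM of 7 decidual markers went from 8.65 to 46.8 in WT and from 10.7 to 45.9 in 5C.

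The microRNA that was added is shown first, because a match to its seed in a transcript is 1 feature that the listed genes could share. Both mature sequences of *Mir483* (GRCm38, chromosome 7, minus strand, 142654932 to 142654952 and 142654968 to 142654989) were taken from RefSeq, and capitals mark the seed, bases 2 to 8.
miR-483-3p: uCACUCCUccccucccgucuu
miR-483-5p: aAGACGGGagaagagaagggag
The letters that pair with the miR-483-3p seed, AGGAGTG, were found in the annotated 3′ UTR of 2 of the 10 genes, *Nanos3* and *Prdm1*, and of 12.5% of 13883 tested genes with a 3′ UTR. Those of miR-483-5p, CCCGTCT, were found in 0 of the 10 genes and in 3.44% of tested genes. The sites are given below in transcript orientation with the match in capitals. The *Nanos3* site starts at base 164 of a 3′ UTR of 172 bases, close to the transcript end (window chr8:84173733-84173752, minus strand). The other coding transcript of *Nanos3* ends at 84173759, before the match, and lacks it. The *Prdm1* site starts at base 1307 of 2490 (window chr10:44438343-44438371, minus strand).
Nanos3: aataaatgctaAGGAGTGga
Prdm1: gtgtatccagtAGGAGTGcaggaattaat
A match is a description of the letters, not of regulation. *Nanos3* and *Prdm1* had log2 fold changes of -0.14 (SE 0.27) and -0.21 (SE 0.18), and the other 5 genes tested lay between -0.22 and 0.16. With 2 genes and SEs of this size, the pair cannot show whether a match matters. Among the 13883 genes, those carrying AGGAGTG had a median of -0.024 on this scale, against -0.0014 for those lacking it. Whether these medians differ was not tested.

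**Figure D1:**
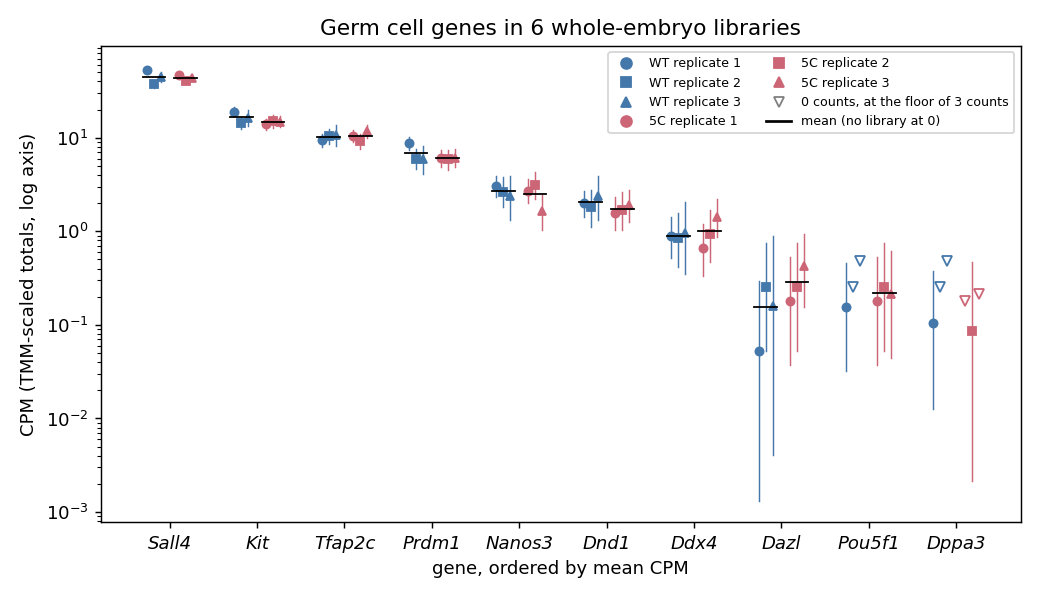
Levels of the 10 germ cell genes by library. The vertical axis is CPM on a log scale, points are libraries with their exact 95% Poisson interval, open triangles stand at the floor of 3 counts for a library with 0 counts, and bars are means of 3, drawn where no library was at 0. *Sall4* lies between 37.3 and 52.9 CPM, and *Dazl*, *Pou5f1* and *Dppa3* lie below 0.5 CPM in all 6 libraries.

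*Dppa3*, also known as Stella, protects the maternal genome of the zygote from demethylation and is among the most specific markers of migrating germ cells. It lies on chromosome 6 (122626410 to 122630272, plus strand, in GRCm38 as for all positions here). It had 2, 0 and 0 counts in WT and 0, 1 and 0 counts in 5C. No library reached 3 counts, and the 4 libraries at 0 allow up to 0.181 to 0.477 CPM. The gene was thus not detectable at this depth in either genotype, and no fold is given. An annotated pseudogene, *Dppa3-ps*, resembles it, and reads that fit both would be lost from a count of uniquely placed reads.

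*Pou5f1*, which encodes the pluripotency factor OCT4 (chromosome 17, 35506018 to 35510772, plus strand), had 3, 0 and 0 counts in WT and 3 counts in each 5C library. The levels were 0.157, 0 and 0 CPM in the WT libraries, against 0.181, 0.256 and 0.213 in 5C. Although these values did not overlap, the highest WT library and every 5C library rest on the same 3 counts, and the 95% Poisson intervals of all 6 overlap. The two-sided exact permutation test gave p = 0.1, the smallest that 3 against 3 samples allow. Exons of *Gm19553* on the opposite strand cover 14.1% of its exon bases.

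*Dazl*, an RNA-binding protein that licenses germ cells for sexual differentiation (chromosome 17, 50279395 to 50293636, minus strand), had 1, 3 and 1 counts in WT and 3, 3 and 6 counts in 5C. Its levels were 0.0523, 0.257 and 0.159 CPM in the WT libraries, against 0.181, 0.256 and 0.426 in 5C. The genotypes overlapped, and the exact permutation test gave p = 0.3. *Dppa3*, *Pou5f1* and *Dazl* did not pass the count filter, so they have no value in the fit across all genes, and the other 7 do.

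*Ddx4*, the germ cell RNA helicase also called VASA (chromosome 13, 112598333 to 112652475, minus strand), had 17, 10 and 6 counts in WT and 11, 11 and 20 counts in 5C. Its levels were 0.889, 0.857 and 0.955 CPM in the WT libraries, against 0.665, 0.937 and 1.42 in 5C, with means of 0.900 ± 0.050 and 1.01 ± 0.383 CPM (mean ± SD of 3 libraries). The 5C libraries spanned the whole WT range, from below it in replicate 1 to above it in replicate 3. The edgeR fit put the log2 fold change at 0.16 (SE 0.35, adjusted p = 0.935). 5C replicate 3 was also the library with the most *Dazl*. Without it the log2 fold change of *Ddx4* was -0.18, so that this 1 library set the direction.

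*Nanos3*, an RNA-binding repressor needed for the survival of migrating germ cells, was the most abundant of the 5 genes listed as germ-cell-restricted. The others were *Dppa3*, *Pou5f1*, *Ddx4* and *Dazl*, and whether counts of these genes came from germ cells was not tested. *Nanos3* measured 3.03, 2.66 and 2.39 CPM in the WT libraries, against 2.72, 3.15 and 1.63 in 5C, from 15 to 58 counts a library. The highest and the lowest libraries were both 5C. The means were 2.69 ± 0.325 in WT against 2.5 ± 0.782 CPM in 5C (mean ± SD of 3 libraries), and edgeR put the log2 fold change at -0.14 (SE 0.27, adjusted p = 0.922). Without 5C replicate 3 the log2 fold change was 0.09. In 5C replicate 3 *Nanos3* was lowest while *Ddx4* and *Dazl* were at their highest of the 6 libraries.

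What a *Nanos3* count measures is less certain than its number. It occupies bases 84173731 to 84185217 of chromosome 8 (GRCm38, minus strand). Besides 2 coding transcripts that start at 84176552, it includes a noncoding transcript of 434 bases that starts at 84185217 and joins an upstream exon of 192 bases to the last exon of the coding transcripts. The intron of that transcript holds the microRNA genes *Mir181d* (84178716 to 84178787) and *Mir181c* (84178873 to 84178961) on the same strand. Reads of this longer transcript would be counted as *Nanos3*, and which transcript the reads came from was not tested. *Nanos3* took 44.2% to 72.6% of the counts summed over the 5 germ-cell-restricted genes. That sum was 4.24, 3.77 and 3.50 CPM in the WT libraries, against 3.75, 4.69 and 3.69 in 5C. Without *Nanos3* it was 1.2, 1.11 and 1.11 CPM in the WT libraries, against 1.03, 1.53 and 2.06 in 5C, from 7 to 29 counts a library. Of the counts without *Nanos3*, *Dppa3*, *Pou5f1* and *Dazl* together gave 1 to 9 a library, and *Ddx4* gave the rest. These sums are a description only. For the sum without *Nanos3* the 5C libraries lay on both sides of the WT libraries, and for the full sum the genotypes overlapped.

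*Dnd1* encodes an RNA-binding protein that keeps microRNAs away from their targets in germ cells, and its loss causes germ cell death and testicular tumors. It lies on chromosome 18 (36763671 to 36766214, minus strand). It measured 1.99, 1.80 and 2.39 CPM in the WT libraries, against 1.57, 1.70 and 1.92 in 5C, from 15 to 38 counts a library. The genotypes overlapped. Its log2 fold change was -0.22 (SE 0.23, edgeR adjusted p = 0.854). Exons of *Wdr55* on the opposite strand cover 5.80% of its exon bases, and a pseudogene, *Dnd1-ps*, is annotated.

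*Prdm1* encodes BLIMP1, the repressor that starts the germ cell fate, from chromosome 10 (44437177 to 44528501, minus strand). It measured 8.69, 5.997 and 5.89 CPM in the WT libraries, against 6.05, 5.88 and 6.11 in 5C, from 37 to 166 counts a library. All libraries but 1 lay within 5.88 to 6.11 CPM, and WT replicate 1 stood above them. Its log2 fold change was -0.21 (SE 0.18, edgeR adjusted p = 0.817). Without WT replicate 1 it was 0.02. WT replicate 1 is the library with the high level of yolk sac endoderm markers (of which 10 of 10 tested had a negative log2 fold change, with a median of -2.12), and the part of those cells in the *Prdm1* level was not tested.

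*Tfap2c* encodes AP2γ, which acts beside PRDM1 in germ cells and is also made in trophoblast and surface ectoderm. It lies on chromosome 2 (172549593 to 172558622, plus strand). It measured 9.37, 10.45 and 10.7 CPM in the WT libraries, against 10.4, 9.20 and 11.8 in 5C, from 67 to 179 counts a library, and the genotypes overlapped. Its log2 fold change was 0.05 (SE 0.14, edgeR adjusted p = 0.952). It was -0.04 without 5C replicate 3 and -0.0076 without WT replicate 1. Summed CPM of 12 trophoblast markers was highest in 5C replicate 3, at 14.7 against 6.22 to 12.5 elsewhere. Of these markers 3 of 12 passed the count filter. *Prl3d1* was highest in 5C replicate 3, at 4.69 CPM. The more abundant *Hand1* and *Prl3b1* were highest in WT replicate 1, at 7.59 and 2.88 CPM. The summed level of 11 surface ectoderm markers (198 to 341 CPM) was highest in WT replicate 1, where *Tfap2c* was second lowest. In that library *Krt18*, *Krt8*, *Epcam* and *Cdh1* measured 114, 52.8, 49.8 and 42.4 CPM, against at most 85.7, 36.3, 41.7 and 22.1 elsewhere. *Trp63*, *Grhl2* and *Wnt6* were also highest there, at 14.5, 13.8 and 10.6 CPM, against at most 13.2, 13.7 and 9.02 elsewhere. The other markers of the list were not, and *Tfap2b* was highest in 5C replicate 2, at 39.5 CPM. The part of trophoblast and surface ectoderm in the *Tfap2c* level was not tested.

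*Sall4*, a zinc finger factor of pluripotent and progenitor cells, was the highest of the 10 genes and is also on chromosome 2 (168748332 to 168767943, minus strand). It measured 52.9, 37.3 and 44.7 CPM in the WT libraries, against 47.0, 40.9 and 43.96 in 5C, from 281 to 1011 counts a library. All 3 libraries of 5C lay inside the WT range. The means were 45.0 ± 7.82 in WT against 43.96 ± 3.07 CPM in 5C (mean ± SD of 3 libraries), and the log2 fold change was -0.04 (SE 0.12, edgeR adjusted p = 0.965). The sign of this small difference turned with offsets for GC content (0.015), without WT replicate 1 (0.11) and without 5C replicate 2 (0.0076). Exons of *Gm14261* on the opposite strand cover 9.5% of the exon bases of *Sall4*.

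*Kit*, the receptor through which germ cells, melanoblasts and blood progenitors receive the survival signal KITL (chromosome 5, 75574916 to 75656722, plus strand), measured 19.05, 14.5 and 16.2 CPM in the WT libraries, against 13.9, 14.99 and 14.8 in 5C, from 102 to 364 counts a library. WT replicate 1 was highest, WT replicate 3 followed, and WT replicate 2 lay among the 5C libraries. The means were 16.6 ± 2.30 in WT against 14.6 ± 0.589 CPM in 5C (mean ± SD of 3 libraries). The edgeR fit put the log2 fold change at -0.19 (SE 0.13, adjusted p = 0.781 and unadjusted p = 0.159), the lowest unadjusted p among the listed genes. Without WT replicate 2 the adjusted p was 0.478 and the unadjusted p 0.0428, and without WT replicate 1 the log2 fold change shrank to -0.07. Of the other cells that carry this receptor, 7 melanoblast markers summed to 30.3 to 33.8 CPM in WT and 30.6 to 37.6 CPM in 5C, and 10 blood progenitor markers to 175 to 186 CPM in WT and 187 to 209 CPM in 5C. Of these lists 5 of 5 and 10 of 10 tested genes had a positive log2 fold change and 0 had an unadjusted p under 0.05. Most of the melanoblast sum was *Sox10* and *Mitf*, at means of 15.5 and 9.91 CPM over the 6 libraries. Most of the blood progenitor sum was *Cd34* and *Tal1*, at 95.9 and 39.7 CPM. Whether these markers came from cells with *Kit*, and the part of such cells in the *Kit* level, was not tested.

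**Figure D2:**
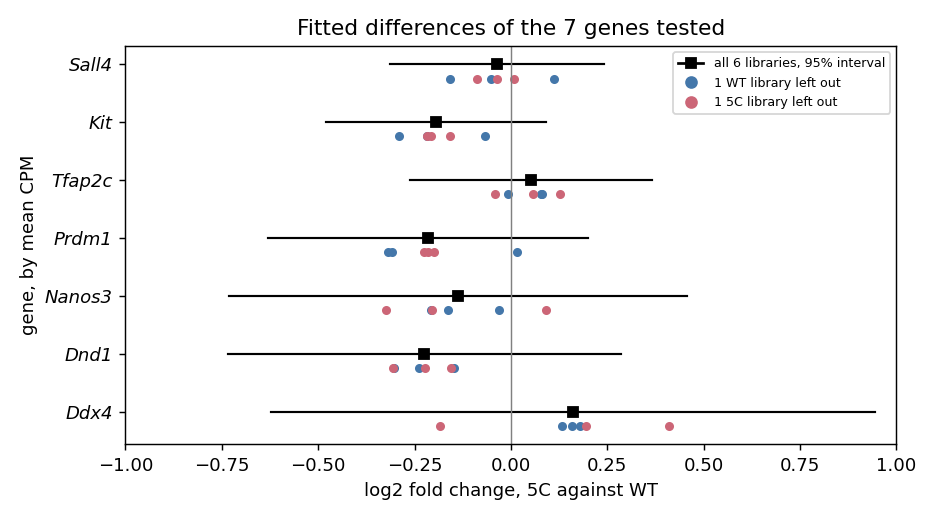
Fitted log2 fold change of 5C against WT for the 7 genes tested, on the horizontal axis. Squares and lines are the estimate and its 95% interval from all 6 libraries, and colored points are fits that left out 1 library. All 7 intervals include 0, and those of *Ddx4*, *Nanos3* and *Dnd1* are the widest.

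Across the list, 0 of 7 genes tested were called at an adjusted p under 0.05 and a fold over 1.5, as for 0 of 16784 genes tested (0%). DESeq2 called 11 genes, none of these 7 among them. None of the 7 had an unadjusted p under 0.05, which 6.02% of all genes had (3.47% lower and 2.55% higher in 5C, 1011 genes in all), and none had genotypes that did not overlap, which 11.4% of all genes tested had. The 5 genes with a negative and 2 with a positive log2 fold change had a median of -0.14, and of all genes tested 50.7% were negative, with a median of -0.00. Each 95% interval lay inside a 2-fold change in either direction. As a ratio of 5C to WT the interval was 0.804 to 1.18 for *Sall4*, 0.834 to 1.29 for *Tfap2c* and 0.718 to 1.06 for *Kit*. It was wider for the genes with few counts: 0.602 to 1.37 for *Nanos3* and 0.649 to 1.92 for *Ddx4*. The counts thus leave room for moderate changes in the germ-cell-restricted genes. Because pools are the replicates, these intervals cover the spread between pools and not between single embryos.

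To compare the genes with each other, CPM was divided by the length of the annotated exons. On this scale, the mean level of *Sall4* was 8.03 CPM per kilobase, which exceeded 61.9% of all genes tested. *Nanos3* (2.81) and *Tfap2c* (2.80) came next, and their 6 libraries overlapped in range, as did those of *Nanos3* and *Kit* (1.75). *Prdm1* (1.15) and *Dnd1* (0.785) followed, and *Ddx4* (0.316) exceeded 4.72% of genes tested. *Pou5f1*, *Dazl* and *Dppa3*, at 0.0598, 0.0581 and 0.0355 CPM per kilobase, could not be ordered, since their libraries overlapped and some held 0 counts. With the length of the longest coding transcript in place of all exons, *Dnd1* (1.31) came before *Prdm1* (1.22), and *Kit*, with 8911 exon bases of which 5241 lie in that transcript, went to 2.97. The other ranks stayed as they were.

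**Figure D3:**
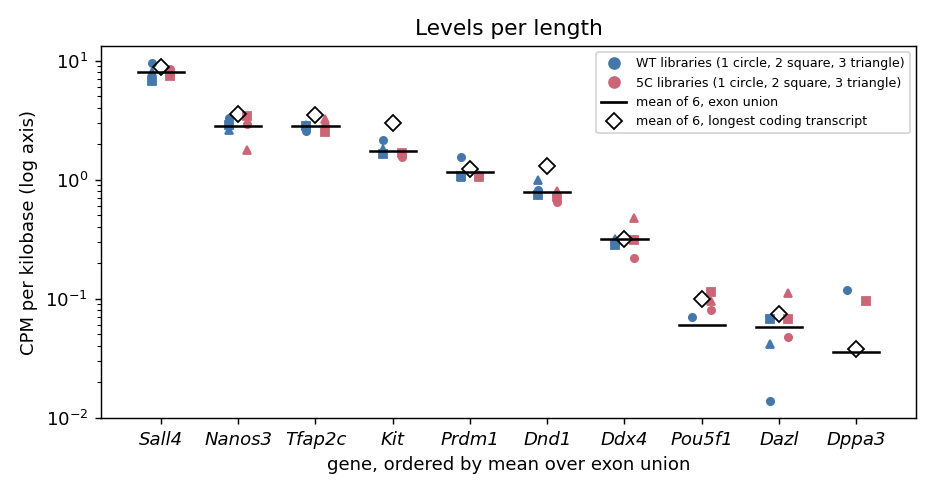
Levels of the 10 genes per length. The vertical axis is CPM per kilobase of exon on a log scale, points are libraries with at least 1 count, bars are means of 6 and diamonds use the longest coding transcript instead. *Sall4* stands at 8.03 and *Ddx4* at 0.316 CPM per kilobase.

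A feature that the list did not use is the CpG content of the promoter. DNA methylation of CpG-rich promoters keeps several germ cell genes silent in somatic cells. RefSeq promoter windows (GRCm38.p6, 250 bases before to 50 after the start) were at hand for 6 of the 10 genes. The *Ddx4* window held 38 CpG and that of *Dazl* 28, against a median of 7 over 32851 windows. *Kit* (20 and 21 in 2 windows) and *Prdm1* (20) were also above it, *Pou5f1* had 11 and 6, and *Nanos3* had 3. The motif CACGTG, the same on both strands, was in the window of *Ddx4* alone among the 6 genes and in 7.15% of all windows, and ATGCAAAT, searched on both strands, was in none of the 6 and in 1.74% of all. Methylation and binding were not measured here.

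Further genes of the lineage came from 3 lists. Of their 61 genes 32 were tested, 19 with a negative and 13 with a positive log2 fold change, and 0 were called. *Cxcl12*, *Sox2* and *Tfcp2l1* had an unadjusted p under 0.05. Among 20 specification and migration genes 16 were tested, 10 with a negative log2 fold change, with a median of -0.03. *Cxcl12*, the chemokine that guides migrating germ cells and is widely made in mesenchyme, measured 148 ± 9.92 in WT against 126 ± 15.8 CPM in 5C (mean ± SD of 3 libraries). The edgeR fit gave it a log2 fold change of -0.24 (adjusted p = 0.781, unadjusted p = 0.0353). *Smad5*, a transducer of BMP signals, was 274 ± 12.7 in WT against 273 ± 11.6 CPM in 5C. *Lin28a*, which blocks let-7 maturation, was 123 ± 12.4 in WT against 119 ± 17.8 CPM in 5C. *Prdm14*, the partner of *Prdm1* in germ cell specification, had 10, 0 and 0 counts in WT and 1, 1 and 2 counts in 5C, and *Nanos2* had 0 counts in all 6 libraries.

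Of 17 listed pluripotency genes 6 were tested, 4 with a negative log2 fold change, and the median was -0.17. *Sox2*, which is abundant in the neural tube, measured 77.9 ± 5.93 in WT against 92.4 ± 3.21 CPM in 5C (mean ± SD of 3 libraries). The edgeR fit gave it a log2 fold change of 0.25 (adjusted p = 0.781, unadjusted p = 0.00923). *Nanog*, which germ cells share with the epiblast, had 4, 2 and 0 counts in WT and 0, 1 and 1 counts in 5C. *Tfcp2l1* and *L1td1* were highest in WT replicate 1, at 9.52 and 8.21 CPM against at most 3.24 and 3.41 CPM elsewhere.

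Genes of later germ cells and meiosis were mostly silent or low. Of 24 listed, 10 were tested, 5 in each direction, with a median log2 fold change of 0.05, and 0 had an unadjusted p under 0.05. *Tdrd7*, a tudor protein of germ granules that is also made in the lens, was highest at 19.5 ± 4.41 in WT against 17.8 ± 1.39 CPM in 5C (mean ± SD of 3 libraries). *Rec8*, a meiotic cohesin, was 8.22 ± 1.05 in WT against 7.25 ± 0.425 CPM in 5C, and *Tdrd1* was 2.70 ± 0.392 and 3.38 ± 0.137 CPM. Somatic genes of the genital ridge, of which 7 of 7 were tested and 0 called, summed to 175 to 207 CPM in WT and to 182 to 200 CPM in 5C. Most of that sum was *Cbx2*, a widely made Polycomb gene, at 126 ± 4.75 in WT against 122 ± 10.03 CPM in 5C. *Lhx9*, which is also made in limb and brain and was named after its values were seen, was the 1 gene of this list with an unadjusted p under 0.05. It measured 31.4, 22.02 and 31.8 CPM in the WT libraries, against 34.6, 39.5 and 37.0 in 5C, which did not overlap. Its log2 fold change was 0.38 (SE 0.14, edgeR adjusted p = 0.781, unadjusted p = 0.0202). Hindgut markers summed to 49.0 to 84.4 CPM in WT and 48.5 to 56.5 CPM in 5C. The highest sum, in WT replicate 1, came with 46.1 CPM of *Cldn6*, an epithelial tight junction gene also named after its values were seen, against 14.05 to 18.04 CPM elsewhere. *Foxa2* and *Cdx2* of the same list were also highest in that library, at 9.10 and 2.25 CPM against at most 6.82 and 1.56 CPM elsewhere. The other genes of the list, *Sox17* and *Shh* among them, were not.

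**Figure D4:**
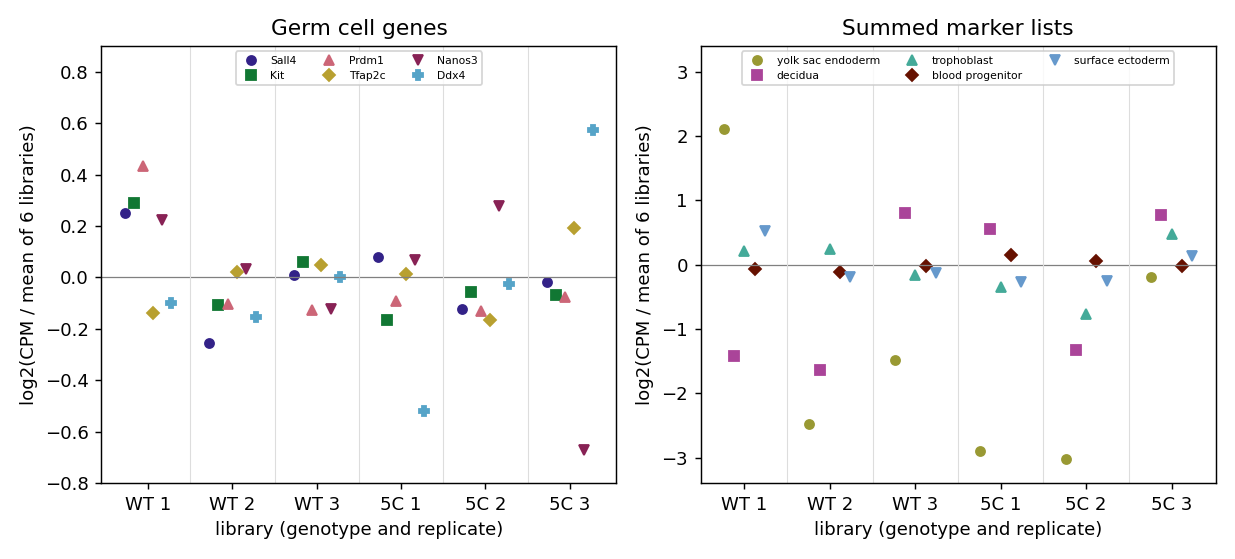
Levels by library, as log2 of the ratio to the mean of 6 libraries, for 6 germ cell genes (left) and for summed marker lists (right). In WT replicate 1 *Prdm1* (8.69 CPM), *Kit*, *Sall4* and the yolk sac endoderm markers (6302 CPM) are at their highest, and in 5C replicate 3 *Ddx4* is highest and *Nanos3* lowest. The scale is wider on the right.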

How the data were processed

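Poly(A)-selected, stranded libraries were sequenced as single-end reads. The authors aligned them with STAR to GRCm38 with Ensembl genes, and the counts they deposited are raw reads for each gene, whole numbers without normalization or filter. Which strand column was used is not given in the sources used here. Group and replicate number came from the sample titles. The 10 members and all gene lists were chosen with earlier results of these data known.

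Symbols, exon lengths and 3′ UTRs came from GENCODE M21 (GRCm38). Counts were filtered (filterByExpr), scaled by TMM and tested with edgeR 4.0.16 in R 4.3.3 (quasi-likelihood, legacy form, genotype as the only term), with Benjamini-Hochberg adjustment over 16784 genes. SE was the log2 fold change divided by the square root of F. The fit was tested on simulated data. Named genes were the members, at most 4 genes with the highest mean CPM per germ cell list and at most 3 per marker list. *Prdm14*, *Nanos2*, *Nanog*, *Lhx9*, *Cldn6* and genes named for 1 high library were picked with their values known. Of these, *Prdm14*, *Nanos2*, *Nanog* and some of the genes named for 1 high library also fall outside this rule. Alternatives included DESeq2 1.42.0 and limma 3.58.1. Same-numbered libraries were not shown to be paired.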

Additional observations from a re-analysis of the deposited data

How the results depend on the processing

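The number of members called was 0 in every setting run, and 0 members had an unadjusted p under 0.05 except without WT replicate 2, where *Kit* had one. Over all genes the number called was 0 (1011 at an unadjusted p under 0.05) and became 319 without a count filter, 11 with DESeq2, 3 with robust moderation and 0 to 1 across fits that left out 1 library (1 without 5C replicate 2 or 3), and the cause was not tested. With the replicate block it was 0 for all genes and 0 for members. Deviations of same-numbered libraries correlated at -0.17, 0.20 and -0.17, so the numbers were not shown to pair the libraries, and with the block 782 genes had an unadjusted p under 0.05.

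Log2 fold changes across fits that left out 1 library went from -0.18 to 0.41 for *Ddx4*, -0.32 to 0.092 for *Nanos3*, -0.29 to -0.07 for *Kit*, -0.32 to 0.016 for *Prdm1*, -0.043 to 0.13 for *Tfap2c*, -0.31 to -0.15 for *Dnd1* and -0.16 to 0.11 for *Sall4*. Signs turned for *Ddx4* with the block and GC-content offsets (-0.00053) and for *Sall4* with GC-content offsets (0.015) and with both (0.025). *Dppa3* differed by -0.035 to 0.028 CPM and the summed germ-cell-restricted genes by -0.12 to 0.41 CPM (0.206 in all libraries, lowest without 5C replicate 2, -0.15 without both replicates numbered 2). Depth limits *Dppa3*, *Pou5f1* and *Dazl*.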

Other observations

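Some genes listed for later germ cells stood out in single libraries, and were chosen after their values were seen. *Rhox6* and *Rhox9*, homeobox genes of germ cells and placenta, were highest in 5C replicate 3, at 4.26 and 3.55 CPM, against at most 2.31 and 1.54 CPM elsewhere. The trophoblast hormone gene *Prl3d1* was also highest there, at 4.69 CPM against at most 1.71 CPM, but the more abundant trophoblast markers *Hand1* and *Prl3b1* were highest in WT replicate 1, at 7.59 and 2.88 CPM against 5.47 and 1.78 CPM in 5C replicate 3. *Tex19.1* and *Tdrd5* were highest in WT replicate 1, at 1.57 and 1.73 CPM, against at most 0.923 and 0.600 CPM elsewhere. *T*, a gene of the tail bud and notochord, ranged from 1.71 to 6.52 CPM over the WT libraries and from 2.06 to 6.61 CPM over those of 5C.

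By the root mean square difference of centred log2 CPM over the 6 libraries, the profiles closest to that of the summed germ-cell-restricted genes were *Dkk1* (0.038), *Ecscr* (0.039) and *Frk* (0.044), against a median of 0.20 over all other genes tested. These were picked as the closest of all genes tested, over 6 points.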
